A study of Homo sapiens with 40 samples.

Results

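The data compared SLC25A12 knockout HEK293T cells that carried SLC25A12-F137S with SLC25A12 knockout HEK293T cells that carried vector, both after 6 hours in 40 nM antimycin A. These groups, called F137S cells and KO-vector cells here, were chosen by their labels and make up 8 of the 40 libraries of the series, with 4 libraries each. HEK293T is an established human cell line derived from embryonic kidney, and antimycin A blocks respiratory complex III. Both groups share the knockout made with a guide against SLC25A12, and differ by the labels only in the introduced construct. The same lines in vehicle for 6 hours (4 libraries each) and wild-type cells with vector under antimycin (WT-vector cells, 4 libraries) serve as further comparisons. Knockout cells labelled SLC25A12-F137S dMTS-DELE1, also under antimycin (4 libraries), are described in a later paragraph without a test. The labels do not state what the F137S substitution does to the carrier, which promoter drives the construct, or whether a line is 1 clone. They call the libraries biological replicates without saying whether these were separate cultures. The p-values thus measure the spread within groups, estimated over all 40 libraries of the series, and that spread may be technical.

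SLC25A12 encodes a carrier of the inner mitochondrial membrane that passes aspartate out of the matrix in exchange for glutamate, a step of the malate-aspartate shuttle. When respiration is blocked, the protease OMA1 can cleave the mitochondrial protein DELE1, whose fragment activates the kinase HRI, encoded by EIF2AK1. HRI phosphorylates the translation factor eIF2alpha, which starts the integrated stress response: general translation falls while ATF4 is made, and ATF4 drives genes of amino acid supply, redox balance and cell stress.

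Library totals ran from 30807119 to 31965438 counts in the 8 libraries, and log2 CPM (CPM being a gene's count relative to the TMM-scaled library total over the tested genes) correlated across genes at 0.9949 to 0.9962 within a group and 0.9941 to 0.9951 between the groups. Among counts from 1 to 20, 56.1% to 58.7% per library were even, and the part of this excess in the results was not tested beyond a fit on halved counts. The 10 HEK293T markers summed to 907 to 918 CPM in KO-vector libraries and 903 to 922 CPM in F137S libraries. By group mean, 1 of the 10 was under 1 CPM in each group. Of 10 markers of differentiated kidney, 9 were under 1 CPM in both groups and UMOD and AQP2 were at 0 throughout, so the label "kidney" describes the origin of the line. Summed markers ran from 18.3 to 22 CPM in KO-vector and 19.8 to 22.2 CPM in F137S libraries for fibroblasts, and from 5.54 to 7.59 and 5.65 to 6.27 CPM for blood cells, with CD3E and HBB at 0. The 5 endothelial markers summed to 1.05 to 1.52 and 1.05 to 1.18 CPM, with CDH5 at 0.

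SLC25A12 itself (chromosome 2, 171784370 to 171999859, minus strand, GENCODE v29 on GRCh38) separated the groups. KO-vector libraries held 2.39, 3.00, 2.66 and 2.97 CPM, and F137S libraries held 1882, 1896, 1890 and 1963 CPM. All F137S libraries lay far above the WT-vector libraries too, which ran from 28.6 to 32.4 CPM. The log2 fold change of F137S over KO-vector cells was 9.43, with an adjusted p of 1.2e-100 in edgeR's quasi-likelihood test. DESeq2 gave 9.44 ± 0.08 (SE, n = 4 per group). F137S cells thus held 62.2 times the WT-vector level, and the comparison sets overexpression against a knockout. The counts do not separate the F137S codon from the wild-type one.

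Apart from this transcript the groups were close. Of 16739 tested genes, 19 rose in F137S cells and 0 fell at an adjusted p < 0.05, so 0.114% were called higher and 0% lower. Of the 19, 5 differed by 2-fold or more: SLC25A12, HSPA6, GDF15, LOC101927762 and INPP5D. The other 14 rose by 0.08 to 0.60 on the log2 scale. At an unadjusted p < 0.05, edgeR gave 550 higher genes (3.29%) and 508 lower genes (3.03%). DESeq2 called 34 higher and 0 lower, with 634 higher and 417 lower at an unadjusted p < 0.05. In 18 of the 19 the 4 F137S libraries lay wholly above the 4 KO-vector libraries; among all tested genes 1.79% were separated in that direction and 1.74% in the other. The exception was AKNA. A count of 0 lower genes did not hold in every fit: FAM83H fell with only the compared groups in the fit (-0.59, adjusted p = 0.0495), ZNF426 (-1.69, adjusted p = 0.0424) and NOMO2 (-0.33, adjusted p = 0.0097) fell without KO-vector replicate 4, and TPI1 (-0.08, adjusted p = 0.0475) and PSMB5 (-0.11, adjusted p = 0.0461) fell without F137S replicate 4. All 5 were picked for naming once their values were known.

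**Figure D1:**
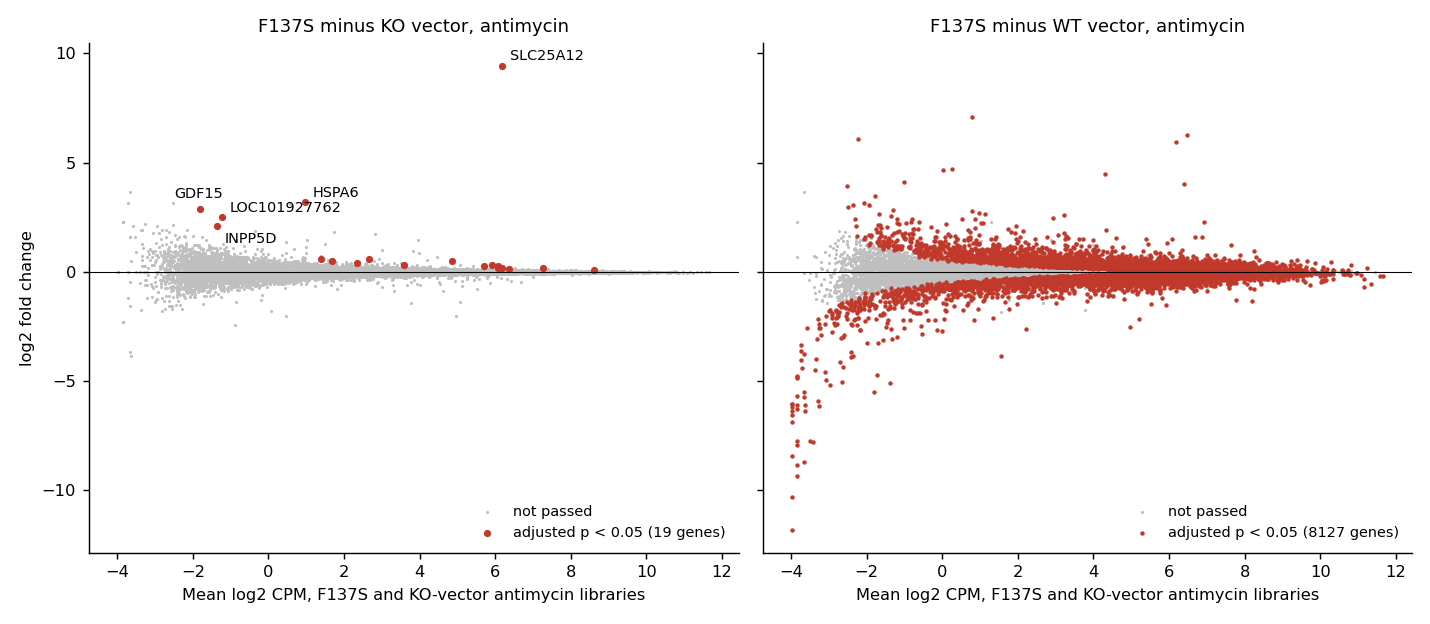
Log2 fold change of each tested gene (vertical axis) against its mean log2 CPM over the F137S and KO-vector antimycin libraries (horizontal axis), for F137S minus KO-vector cells on the left and F137S minus WT-vector cells on the right. Red points passed an adjusted p < 0.05: 19 genes on the left, all above the line, and 8127 on the right, on both sides of it.

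The spread between libraries was small, which bounds the differences that were not called. The median standard error of a log2 fold change was 0.061 over all tested genes and 0.047 over the 12797 genes with a mean log2 CPM of at least 1. For 13197 genes (78.8%) the 95% interval of the difference lay within 1.5-fold either way, and for 14877 (88.9%) within 2-fold. The median log2 fold change of all tested genes was -0.003 with TMM scaling and 0.002 with DESeq2 size factors.

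HSPA6, an inducible cytosolic member of the HSP70 chaperone family, gave the largest difference among the called genes after SLC25A12. KO-vector libraries had 18, 24, 15 and 23 counts (0.558, 0.742, 0.464 and 0.712 CPM), and F137S libraries had 188, 185, 177 and 184 counts (5.80, 5.75, 5.65 and 5.71 CPM). Each F137S library was above every KO-vector library, and the F137S libraries differed little among themselves. The ratio of mean CPM was 9.26, with a log2 fold change of 3.20 ± 0.18 (SE, n = 4 per group) and an adjusted p of 2.3e-24 in edgeR's quasi-likelihood test. WT-vector libraries held 0.836 to 0.940 CPM, so F137S cells exceeded both other lines, and against WT-vector cells the log2 fold change was 2.70 ± 0.17 (adjusted p = 3.1e-23). In vehicle the levels were 0.363 ± 0.0742 CPM (SD, n = 4) in KO-vector and 6.09 ± 0.787 in F137S cells, a log2 fold change of 4.05 ± 0.20 (adjusted p = 2.1e-28). The near-identical copy HSPA7 had 11 counts in all 4 KO-vector libraries together and 23 in the F137S libraries. No source used here says how reads shared by the 2 genes were counted.

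The stretch before the HSPA6 start site is shown because a heat shock element, the site of the factor HSF1, was searched in it. It is 100 bases from RefSeq on GRCh38.p14, chr1:161524440-161524539, plus strand, ending at the base before the start site, with capitals on the matched letters.
HSPA6: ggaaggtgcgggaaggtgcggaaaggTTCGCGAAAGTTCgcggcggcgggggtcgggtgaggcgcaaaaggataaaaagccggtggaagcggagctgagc
The pattern searched was TTC, GAA and TTC, each 2 bases apart, and the match begins 74 bases before the start site. Over both strands, 172 of 35116 promoter windows of 300 bases (0.49%) held this pattern, which is 166 of 27305 genes (0.608%). Of 14 called genes with a promoter entry, 1 (HSPA6) had it, and of 18 listed heat shock genes with an entry, 6 had it: CHORDC1, DNAJA1, HSP90AA1, HSP90AB1, HSPA6 and HSPA8. A match describes letters and is not a measured binding site.

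Of 19 tested heat shock chaperone genes, 1 rose (HSPA6), 0 fell and 18 did not pass, and the list median was 0.003 on the log2 scale against -0.003 for all tested genes. HSP90AA1 gave -0.01 ± 0.02, HSPA8 0.00 ± 0.03, HSPH1 0.02 ± 0.02 and HSPA1A 0.19 ± 0.10, with adjusted p of 0.96, 0.996, 0.93 and 0.81 in edgeR's test. DNAJB1, a co-chaperone of HSP70, stood just outside the threshold at 0.13 ± 0.03 (adjusted p = 0.056). Its F137S libraries held 125.0, 113.3, 121.7 and 126.9 CPM, all above the KO-vector range of 109.7 to 112.5 CPM and below the WT-vector mean of 164 ± 5.81 (SD, n = 4). DNAJB1 passed, and the list count was 2, with DESeq2 size factors (adjusted p = 0.0308), with no filter (0.0243), with DESeq2's test (0.0181), without the libraries labelled knockout plus SLC25A12-WT (0.0494), with counts halved (0.0405) and without F137S replicate 2 (0.00165).

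GDF15, a secreted cytokine of cell stress and a target of ATF4 and CHOP, rose from a level near 0. Its counts were 4, 0, 4 and 2 in KO-vector libraries and 13, 11, 29 and 24 in F137S libraries. The groups did not overlap, but the F137S libraries fell into a lower and a higher pair. The log2 fold change was 2.90 ± 0.45 (SE, n = 4 per group; edgeR adjusted p = 1.2e-04), and it ran from 2.50 to 3.20 as each library was left out. WT-vector libraries had 14, 18, 18 and 19 counts, and F137S cells did not pass against them (0.11 ± 0.30, adjusted p = 0.79). In vehicle there were 2 counts in KO-vector and 26 in F137S libraries in all, and the difference there missed the threshold (adjusted p = 0.057).

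LOC101927762 and INPP5D were the remaining genes past 2-fold, both at few counts and both named after their values were seen. LOC101927762, an uncharacterised locus, had 7, 4, 4 and 5 counts in KO-vector libraries against 42, 14, 16 and 43 in F137S libraries. As with GDF15 the F137S libraries were uneven, here with replicates 1 and 4 high. Its log2 fold change was 2.50 ± 0.40 (edgeR adjusted p = 2.0e-04), and its WT-vector libraries had 13 to 23 counts. INPP5D, which encodes the inositol phosphatase SHIP1, had 3, 5, 8 and 4 counts against 20, 21, 15 and 30, without overlap. Its log2 fold change was 2.09 ± 0.41 (adjusted p = 3.6e-03), but without KO-vector replicate 1 the adjusted p was 0.0518.

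**Figure D2:**
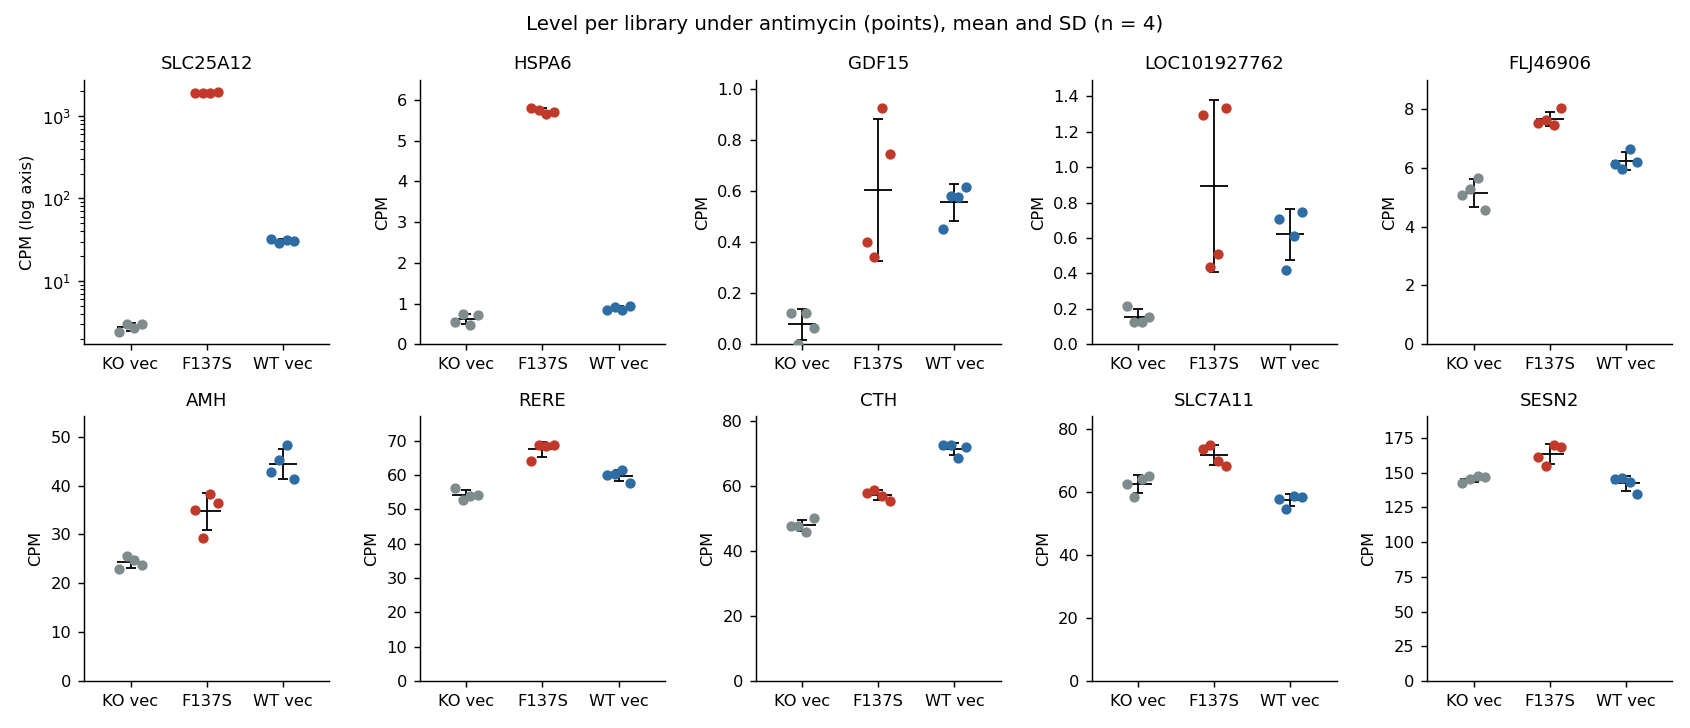
CPM per library under antimycin (points) with the mean and SD of 4 libraries (black) for the 10 genes whose call held in every alternative fit and with each library left out. Grey is KO vector, red F137S and blue WT vector; the SLC25A12 axis is logarithmic and the others start at 0. F137S libraries lie above KO-vector libraries in each panel, and above WT-vector libraries as well for SLC25A12, HSPA6, FLJ46906, RERE, SLC7A11 and SESN2.

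CTH, SLC7A11, SESN2 and PSAT1 rose by 0.08 to 0.26 on the log2 scale. CTH, the enzyme that makes cysteine from cystathionine and an ATF4 target, stood at 47.8, 47.6, 45.8 and 50.2 CPM in KO-vector and at 57.9, 58.9, 56.8 and 55.4 CPM in F137S libraries. Every F137S library was higher, and the log2 fold change was 0.26 ± 0.04 (SE, n = 4 per group; edgeR adjusted p = 1.7e-05), or 19.7% by mean CPM. The WT-vector mean was higher still, at 71.5 ± 1.89 CPM, and CTH was lower in F137S than in WT-vector cells (-0.32 ± 0.04, adjusted p = 3.4e-11).

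SLC7A11, the cystine importer subunit of system xc-, had 62.5, 58.4, 63.9 and 65.0 CPM in KO-vector and 73.6, 74.8, 69.7 and 68.1 CPM in F137S libraries. The groups did not overlap, and the log2 fold change was 0.20 ± 0.03 (edgeR adjusted p = 4.3e-04). In WT-vector cells the mean was 57.3 ± 1.90 CPM, so F137S cells were also above them (0.32 ± 0.03, adjusted p = 8.0e-13). SESN2, a leucine sensor that restrains mTORC1, had 142.6, 145.2, 147.8 and 147.1 CPM against 161.3, 154.9, 170.2 and 168.9 CPM. Its log2 fold change was 0.17 ± 0.03 (adjusted p = 2.3e-03), and F137S cells were above WT-vector cells as well (0.20 ± 0.03, adjusted p = 2.3e-07).

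PSAT1, the aminotransferase of serine synthesis, showed the smallest called difference. It stood at 375, 378, 380 and 382 CPM in KO-vector and 403, 396, 397 and 405 CPM in F137S libraries. These levels did not overlap, yet the log2 fold change was only 0.08 ± 0.02 (edgeR adjusted p = 0.021), below the WT-vector mean of 502 ± 5.56 CPM (-0.33 ± 0.02 against it, adjusted p = 8.3e-28). The call was lost without KO-vector replicate 1 or 2, or without F137S replicate 1 or 4, while the value stayed between 0.075 and 0.088.

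Of the called genes with other roles, AMH, RERE and FLJ46906 kept their calls in every fit. AMH, which encodes anti-Müllerian hormone, had 23.0, 25.6, 24.8 and 23.8 CPM in KO-vector and 35.0, 29.3, 38.2 and 36.4 CPM in F137S libraries. All F137S libraries were higher, with replicate 2 nearest to the KO-vector range. Its log2 fold change was 0.52 ± 0.06 (edgeR adjusted p = 1.9e-06), and WT-vector cells stood above both at 44.4 ± 3.08 CPM. RERE, a nuclear receptor corepressor, had 56.3, 52.9, 53.7 and 54.2 CPM against 64.1, 68.8, 68.3 and 68.6 CPM, without overlap. Its log2 fold change was 0.31 ± 0.04 (adjusted p = 2.3e-09). FLJ46906, a noncoding gene antisense to NHSL1, rose by 0.57 ± 0.11 (adjusted p = 1.3e-03), from 5.15 to 7.67 CPM by the group means. NHSL1 gave 0.07 ± 0.06 (adjusted p = 0.93), and since strand use in counting is not given, reads of the 2 genes cannot be told apart.

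The other called genes were less stable. MBD6, a methyl-CpG-binding domain protein, rose by 0.28 ± 0.05 (edgeR adjusted p = 8.5e-03). In GENCODE v29 it overlaps DDIT3 on the opposite strand, so their reads cannot be told apart where they overlap. NIBAN1, a stress-induced regulator of translation, rose by 0.33 ± 0.07 (adjusted p = 6.1e-03). IFRD1, a transcriptional coregulator, rose by 0.16 ± 0.03 (adjusted p = 2.3e-03), and UNC5B, a netrin receptor, by 0.15 ± 0.03 (adjusted p = 0.029). GNG13, a G protein gamma subunit that overlaps CHTF18 on the opposite strand, rose by 0.52 ± 0.11 (adjusted p = 0.021), and CCDC183-AS1, antisense to CCDC183, by 0.60 ± 0.13 (adjusted p = 8.2e-03). AKNA, an AT-hook protein named after its values were seen, rose by 0.40 ± 0.09 (adjusted p = 0.020), with 4.00, 5.29, 3.68 and 4.61 CPM against 5.18, 5.88, 5.68 and 6.39 CPM.

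Single libraries decided some of these calls. Without KO-vector replicate 1 the count of called genes was 12 in place of 19, with GNG13, INPP5D, IFRD1, PSAT1, UNC5B, AKNA and MBD6 lost. Without KO-vector replicate 4 it was 28, of which 26 were higher. NIBAN1 was lost without KO-vector replicate 2, and CCDC183-AS1 without KO-vector replicate 3 or F137S replicate 1. GNG13 was also lost without KO-vector replicate 2 or 3 or F137S replicate 1 or 3, UNC5B without KO-vector replicate 2 or 4 or F137S replicate 1 or 3, AKNA without KO-vector replicate 3 or F137S replicate 2 or 4, and MBD6 without F137S replicate 3 or 4. Their fold changes kept their direction in each of these fits. In all, 10 of the 19 held in every alternative fit and with each of the 8 libraries left out in turn.

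Transcripts of the pathway from mitochondria to eIF2alpha did not pass. DELE1 stood at 46.6, 52.2, 50.2 and 57.0 CPM in KO-vector and 50.1, 49.4, 52.9 and 51.8 CPM in F137S libraries, overlapping, with a log2 fold change of -0.01 (unadjusted 95% interval -0.09 to 0.06; edgeR adjusted p = 0.98). OMA1 gave -0.08 (-0.17 to 0.01; adjusted p = 0.85) and EIF2AK1 -0.02 (-0.06 to 0.03; adjusted p = 0.96). Of the 21 genes on the list of this relay, 0 rose and 0 fell, with a median of -0.013. SLC25A13, the second aspartate-glutamate carrier of human cells, gave -0.05 (-0.11 to 0.00; adjusted p = 0.82). In the aspartate and malate shuttle list 1 of 10 genes rose, SLC25A12 itself, and the other 9 did not pass. GOT1 gave 0.05 ± 0.03, GOT2 -0.04 ± 0.02, MDH1 -0.06 ± 0.02 and MDH2 -0.01 ± 0.02, the enzymes that run the shuttle on either side of the membrane.

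The lists of the integrated stress response gave few calls and mostly positive values. Of 9 transcription factors 0 passed, and of 20 effectors 3 rose (CTH, SESN2 and GDF15) and 0 fell, and DESeq2 called KLHDC7B besides, for a count of 4. Without regard to the test, 27 of the 29 (93.1%) were higher in F137S cells under antimycin, against 48.2% of all tested genes, and the list median was 0.107 against -0.003. In vehicle 25 of the 29 were higher with a median of 0.148, against 50.2% of all tested genes and a median of 0. In vehicle 5 of the 29 were called, against 3 under antimycin. Among all tested genes 0.0836% were called higher in vehicle and 0.114% under antimycin. With DESeq2 size factors the antimycin count was 28 of 29 and the median 0.112. For all tested genes these were 8560 of 16739 and 0.002. The members share pathways and are not independent, so these counts describe the list and no test was run on them. ATF5 (-0.02 ± 0.06) and NDRG1 (-0.00 ± 0.04) were the ones not higher with TMM scaling.

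The best known members stayed under the threshold. ATF4 stood at 667, 639, 674 and 683 CPM in KO-vector and 675, 681, 684 and 690 CPM in F137S libraries, overlapping, a log2 fold change of 0.04 (unadjusted 95% interval 0.00 to 0.07; edgeR adjusted p = 0.78). This is its mRNA, while the response sets ATF4 mainly through translation. DDIT3, which encodes the factor CHOP, had 15.9, 17.5, 18.7 and 19.4 CPM against 20.9, 20.8, 19.8 and 23.5 CPM, without overlap. Its log2 fold change was 0.25 ± 0.06 (adjusted p = 0.12), and DESeq2 gave an adjusted p of 0.0472. ATF3 gave 0.08 ± 0.04 (adjusted p = 0.79), TRIB3, a pseudokinase that restrains CHOP, 0.14 ± 0.05 (0.59), CHAC1, a glutathione-degrading enzyme, 0.30 ± 0.11 (0.59), and ASNS, asparagine synthetase, 0.16 ± 0.14 (0.92). NUPR1, a stress-induced chromatin protein, gave 0.60 ± 0.16 (0.17), with a DESeq2 adjusted p of 0.0156. The count of 0 among the 9 factors rests on single libraries: NUPR1 passed without KO-vector replicate 3 (adjusted p = 0.0126) or F137S replicate 3 (0.0279), and DDIT3 without KO-vector replicate 4 (0.0417). With DESeq2 the count was 2 of 9. TGATGNAA, the core of the ATF4 element searched on both strands, was held by 7 of the 23 list members with a promoter entry (30.4%), by 1 of 14 called genes (IFRD1, 7.14%) and by 1217 of all 27305 genes with an entry (4.46%). As with the heat shock element, a match describes letters.

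**Figure D3:**
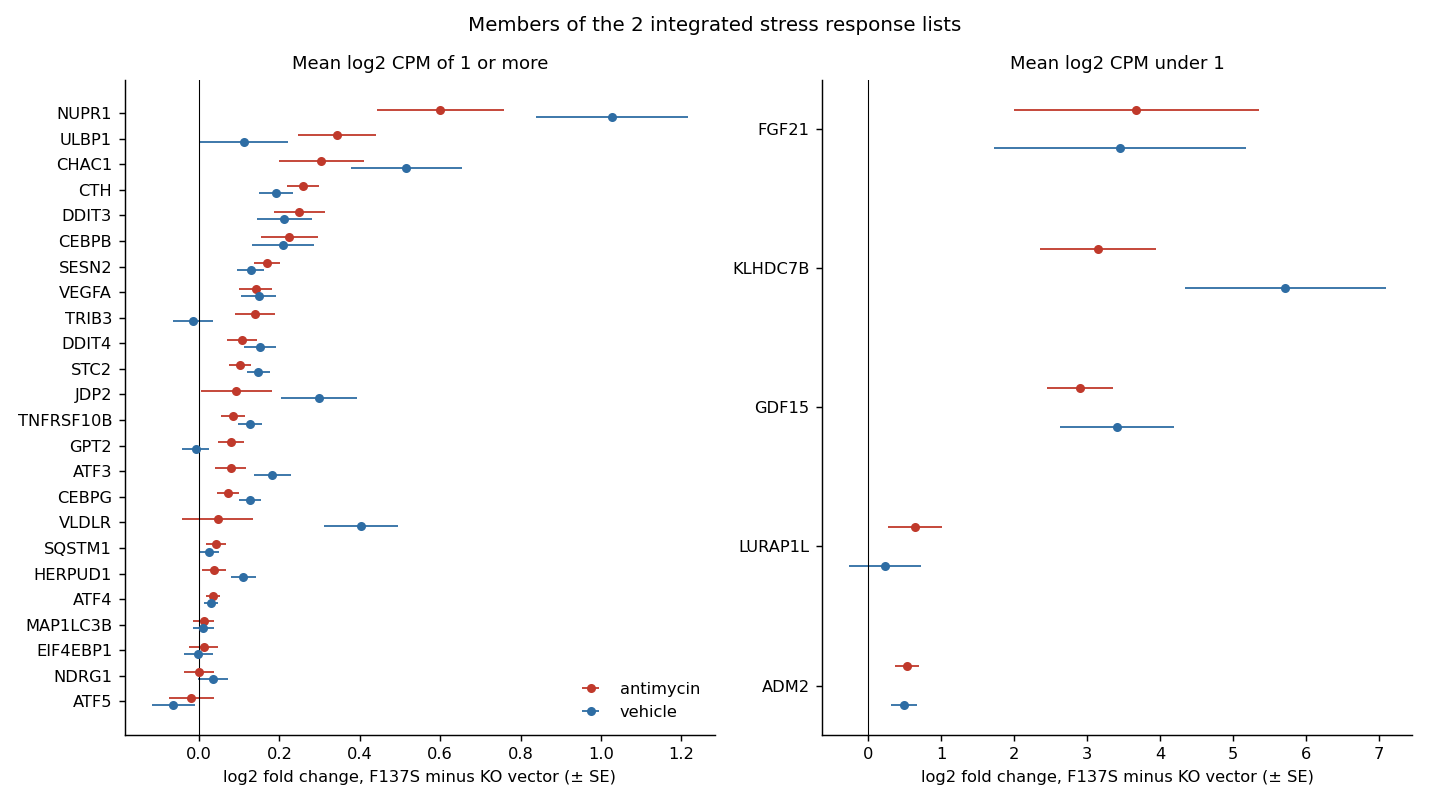
Log2 fold change of F137S minus KO-vector cells (horizontal axis, points with SE) for the 29 members of the stress response lists, under antimycin (red) and in vehicle (blue), split by mean log2 CPM with different axes. Under antimycin 27 of 29 points are above 0; FGF21, KLHDC7B and GDF15, on the right, rest on few counts.

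Other lists gave 1 call or none. Of 19 amino acid transporters 1 rose (SLC7A11) and 0 fell, with a median of 0.039; SLC6A9, a glycine transporter, gave 0.22 ± 0.06 (adjusted p = 0.17, and 0.00776 without KO-vector replicate 4, which makes the count 2) and SLC3A2, the partner of SLC7A11, 0.08 ± 0.02 (adjusted p = 0.29). Of 22 serine, folate, asparagine and proline enzymes 1 rose (PSAT1), with a median of 0.004; MTHFD2, of mitochondrial folate metabolism, gave 0.07 ± 0.02 (adjusted p = 0.16). MTHFD2 passed, for a count of 2, with DESeq2 (adjusted p = 0.0147), without KO-vector replicate 4 (0.0335) and without F137S replicate 3 (0.0159). Of 23 NRF2 antioxidant targets 1 rose, again SLC7A11, with a median of -0.012. Apart from TPI1 without F137S replicate 4, given above, none passed in edgeR's or DESeq2's test among 20 cytosolic tRNA synthetases (median 0.025), 24 endoplasmic reticulum folding genes (-0.019), 16 mitochondrial chaperones and proteases (-0.022), 18 aspartate-using nucleotide enzymes (-0.005), 26 glycolysis and hypoxia genes (-0.016), 29 cholesterol and fatty acid genes (-0.022), 22 immediate early genes (0.021), 35 mitosis and replication genes (0.004), 20 interferon-stimulated genes (-0.004), 25 lysosome genes (-0.018) and 38 HOX genes (0.011). The median of the interferon list was 0.001 with DESeq2 size factors, and no other median named here changed sign. Of 20 p53 targets 0 passed, with 18 above 0 (90%) and a median of 0.040, against 48.2% of all tested genes above 0. In vehicle 16 of the 20 were above 0, against 50.2% of all tested genes. Mostly positive values were thus not confined to the stress response lists.

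Respiratory chain transcripts sat slightly below 0 as lists, with no gene past the threshold. Of 36 nuclear genes for complexes II to V, 2 were above 0 and the median was -0.041. Of 37 complex I genes 8 were above 0 and the median was -0.038. Values ran from -0.068 to 0.043 in the first list and from -2.44 to 0.06 in the second. At an unadjusted p < 0.05 in edgeR, 5 genes of each list were lower and 0 higher. Among all tested genes 3.03% were lower and 3.29% higher at that threshold. With DESeq2 size factors the medians were -0.037 and -0.034. Among all tested genes 48.2% were above 0 with TMM scaling, and the median was -0.003. Members of these lists are not independent, and no test was run on the counts. ATP5F1B, a catalytic subunit of ATP synthase, gave -0.03 ± 0.01 and COX5A, of cytochrome oxidase, -0.06 ± 0.03, with edgeR adjusted p of 0.82 and 0.74. In vehicle, with other libraries of the same lines, the medians were -0.029 with 6 of 36 above 0 and -0.034 with 7 of 37 above 0. Among all tested genes 50.2% were above 0 there. Of 27 genes of the TCA cycle 9 were above 0, with a median of -0.021. None of the 13 protein genes of mitochondrial DNA looked for was among the counted gene symbols, so they could not be analysed.

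**Figure D4:**
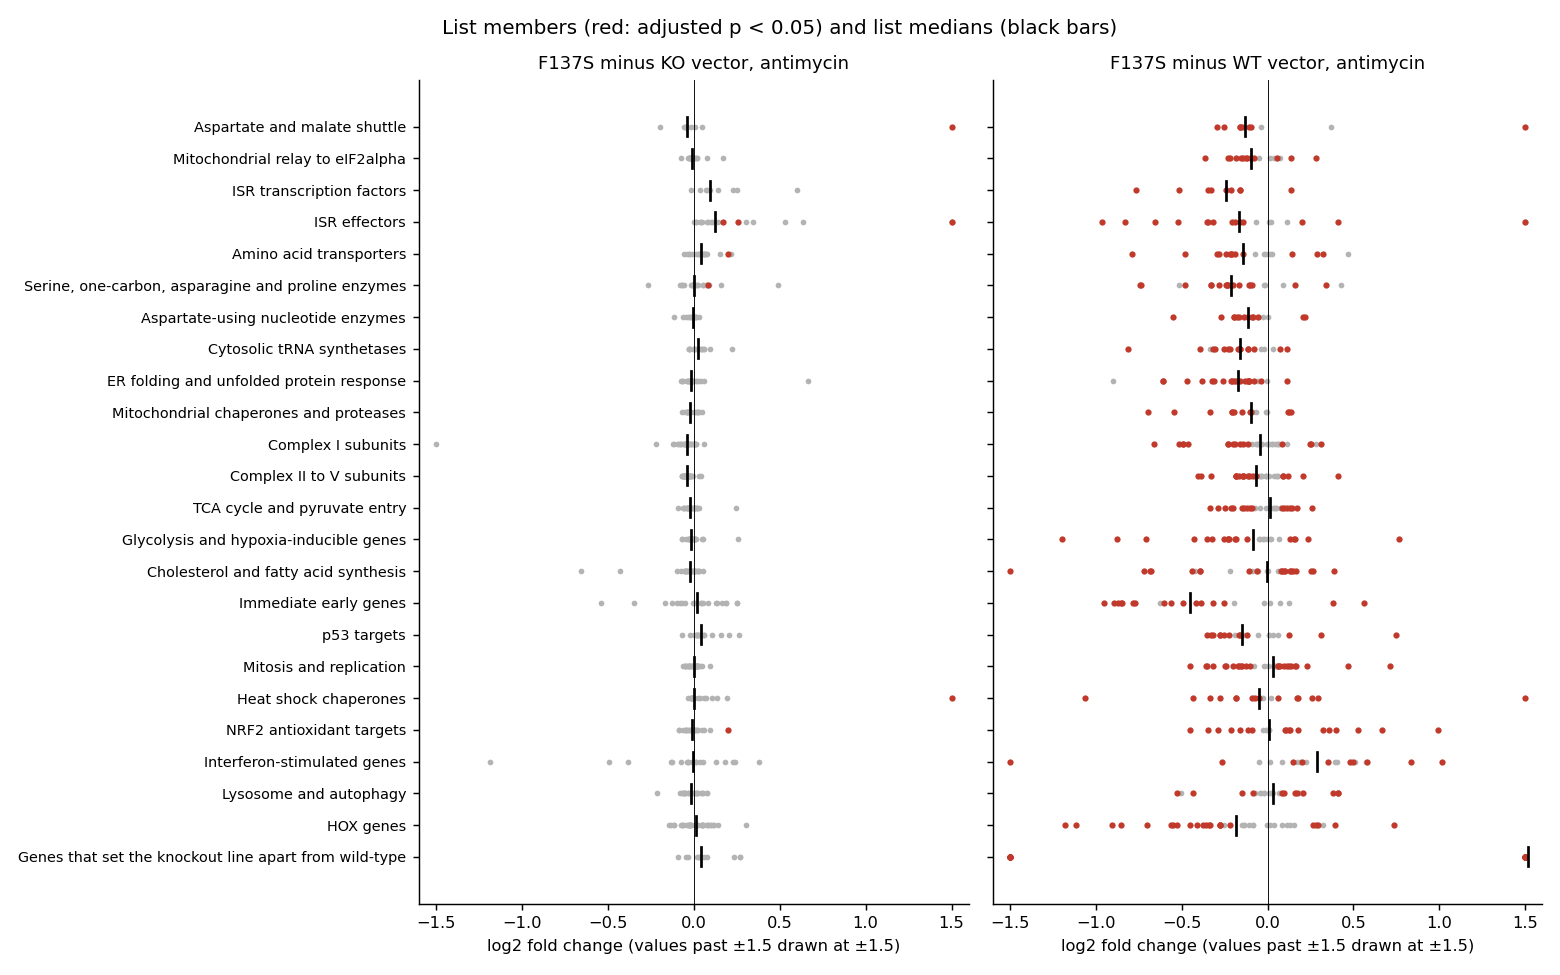
Log2 fold change of each list member (points; red passed an adjusted p < 0.05) and list medians (black bars), for F137S minus KO-vector cells on the left and F137S minus WT-vector cells on the right, both under antimycin; values past 1.5 either way are drawn at 1.5. On the left medians lie between -0.042 and 0.124 with at most 3 red points in a list, while on the right most lists hold red points on both sides.

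The same lines were also compared without antimycin. In vehicle 14 genes rose in F137S cells and 0 fell (0.0836% higher), with 538 higher (3.21%) and 477 lower (2.85%) at an unadjusted p < 0.05 in edgeR, and 21 higher and 3 lower in DESeq2. The count fell to 6 without KO-vector vehicle replicate 2, to 8 without F137S vehicle replicate 1 and to 5 without F137S vehicle replicate 4. Both treatments called SLC25A12, HSPA6, AMH, CTH, RERE and LOC101927762, which is 31.6% of the antimycin calls and 42.9% of the vehicle calls. The 2 comparisons share no library. Of the 18 antimycin calls other than SLC25A12, 18 were higher in vehicle too and 15 had an unadjusted p < 0.05 there; among all genes higher under antimycin, 54.8% were higher in vehicle. Of the 18, 16 were larger under antimycin, the condition that selected them.

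Several stress response genes were called in vehicle and not under antimycin. NUPR1 rose by 1.03 ± 0.19 in vehicle (edgeR adjusted p = 5.9e-03), from 1.01 ± 0.256 to 2.06 ± 0.317 CPM (SD, n = 4). INHBE, a stress-induced inhibin subunit, rose by 1.23 ± 0.19 (adjusted p = 2.3e-04) in vehicle and gave 0.56 ± 0.16 (adjusted p = 0.39) under antimycin. CEBPG, a partner factor of ATF4, rose by 0.13 ± 0.03 (adjusted p = 0.028), STC2, a secreted glycoprotein, by 0.15 ± 0.03 (adjusted p = 3.5e-03), VLDLR, a lipoprotein receptor, by 0.40 ± 0.09 (adjusted p = 0.049) and SLC38A2, a neutral amino acid transporter, by 0.13 ± 0.02 (adjusted p = 4.5e-03). ZNNT1, a noncoding gene, rose by 0.71 ± 0.16 (adjusted p = 0.034). None of them passed the test of the difference between treatments, given next. Of these genes INHBE, SLC38A2 and ZNNT1 were named after their values were seen.

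No gene passed the test of whether the F137S minus KO-vector difference itself differed between antimycin and vehicle. In edgeR 0 genes were called, with 326 larger (1.95%) and 385 smaller (2.3%) under antimycin at an unadjusted p < 0.05 (4.25% together), and DESeq2 also called 0, with 376 and 356. HSPA6 gave -0.85 ± 0.30 (unadjusted p = 0.0052, adjusted p = 0.9998), CTH 0.07 ± 0.06 (0.24, 0.9998) and ATF3 -0.10 ± 0.06 (0.086, 0.9998). SLC39A7, a zinc transporter, rose in vehicle by 1.16 ± 0.23 (adjusted p = 0.037) and gave -0.26 ± 0.22 under antimycin. Its difference between treatments was -1.42 ± 0.32 (adjusted p = 0.9998), which passed only without the libraries labelled knockout plus SLC25A12-WT (adjusted p = 0.0411). FAM83H passed only with the compared groups alone in the fit (-1.03, adjusted p = 0.011).

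**Figure D5:**
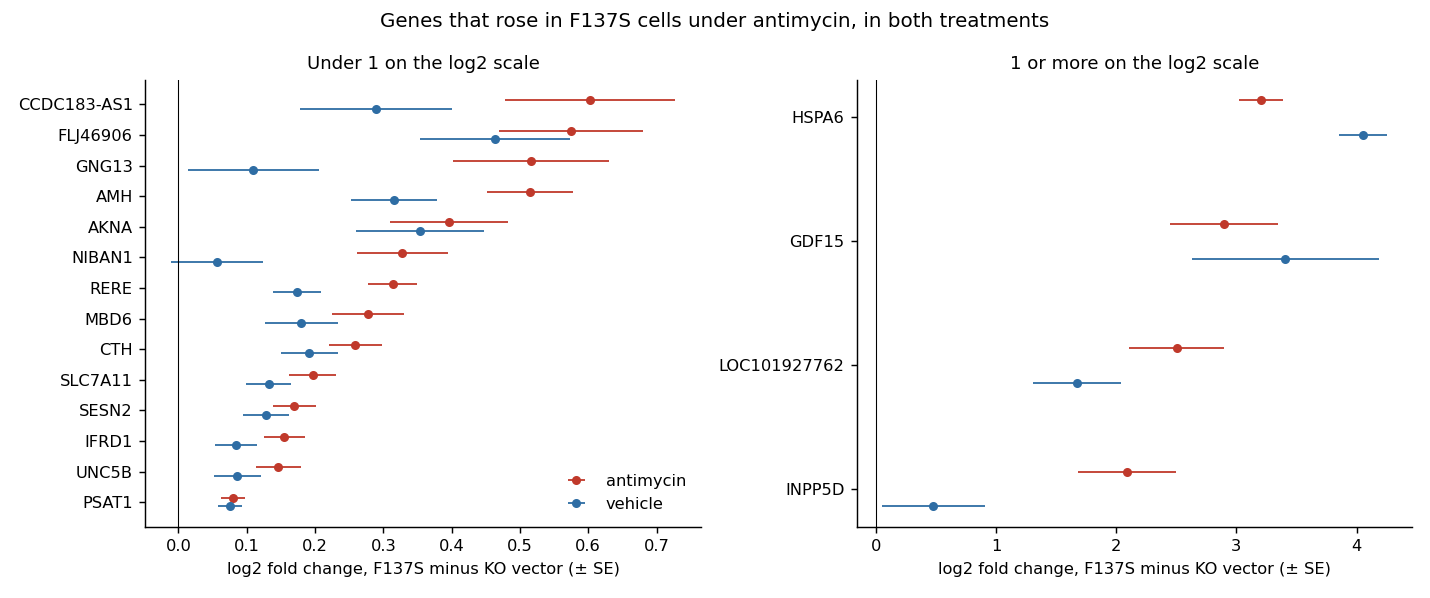
Log2 fold change of F137S minus KO-vector cells (horizontal axis, points with SE) for the 18 genes other than SLC25A12 that rose under antimycin, under antimycin (red) and in vehicle (blue), split by size with different axes. All blue points are above 0; HSPA6 and GDF15 are the 2 genes whose vehicle value is larger.

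Set against WT-vector cells under antimycin, the distance was far larger. Of 16739 genes 8127 (48.6%) passed, 3973 higher (23.7%) and 4154 lower (24.8%) in F137S cells, and 615 passed at 2-fold or more. That comparison uses the same F137S libraries, so its values are given side by side with those against KO-vector cells and are not independent of them. Of the 29 stress response genes, 4 were higher and 19 lower than in WT-vector cells, with a median of -0.192. ATF4 gave -0.16 ± 0.02 (adjusted p = 4.1e-13), ATF3 -0.51 ± 0.04 (3.4e-20), CHAC1 -0.83 ± 0.10 (3.9e-10) and ASNS -0.73 ± 0.13 (1.5e-06). The 4 higher ones, named because the count is small, were SESN2, KLHDC7B, SQSTM1 and ATF5.

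Genes that mark the knockout line differed from WT-vector and not from KO-vector cells by the test. The list holds 13 genes picked on libraries of this series for differing between knockout and wild-type cells, so it is not independent evidence for its direction. Against WT-vector cells 7 were higher and 6 lower in F137S cells, for example DBIL5P (6.29 ± 0.07, adjusted p = 3.7e-74), KIF1A, a kinesin (2.28 ± 0.04, 4.6e-61), CASP8, the apoptotic protease (-2.61 ± 0.08, 2.6e-42), and DDR2, a collagen receptor (-3.87 ± 0.08, 7.1e-57). Against KO-vector cells 0 of the 13 passed, with values from -0.09 to 0.27. For DBIL5P the value was 0.04 ± 0.04, for KIF1A 0.02 ± 0.03, for CASP8 -0.09 ± 0.09 and for DDR2 -0.03 ± 0.10.

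In the line that carries both SLC25A12-F137S and dMTS-DELE1, under antimycin with 4 libraries, 18 of the 19 called genes had all libraries above all F137S libraries, without a test. The share of all tested genes separated in this way was not computed, so the count does not set the called genes apart from other genes. SLC25A12 was among them, at 4272 ± 56.9 against 1908 ± 37.3 CPM, so the lines also differ in the carrier transcript. AKNA stood at 60.2 ± 1.21 against 5.79 ± 0.499 CPM. GDF15 stood there at 11.3 ± 0.860 CPM (SD, n = 4), INPP5D at 3.31 ± 0.330, LOC101927762 at 7.29 ± 0.449, FLJ46906 at 22.8 ± 0.779, AMH at 84.2 ± 3.57 and CTH at 132 ± 1.82. HSPA6, the exception, was lower there than in F137S cells, at 2.31 ± 0.290 against 5.73 ± 0.0637 CPM. KLHDC7B, a stress-list gene, had 36.8 ± 1.78 CPM there, with counts of 4, 0, 0 and 0 in KO-vector and 10, 9, 10 and 10 in F137S libraries (edgeR adjusted p = 0.20; 0.0113 with DESeq2, and 0.0212 in edgeR without the libraries labelled knockout plus SLC25A12-WT). DELE1 was at 6087 ± 56.1 CPM in that line, while in F137S libraries it stayed between 49.4 and 52.9 CPM, inside the KO-vector range.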

How the data were processed

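Per the labels' protocols, poly(A) RNA was primed with random hexamers and read in pairs. The authors deposited raw counts per gene symbol. The submitters' processing notes name HISAT2 2.1.0, featureCounts 2.0.6 and hg38; settings, annotation and strand use were not stated in what was used here. Of 28278 symbols, 16739 passed filterByExpr. In R 4.3.3, edgeR 4.0.16 fitted all 40 libraries, in 10 groups, by a robust quasi-likelihood model after TMM scaling, unpaired. Each comparison was a contrast, adjusted by Benjamini-Hochberg over all genes tested and called at an adjusted p < 0.05. Standard errors came from the test statistic unless DESeq2 is named, and CPM values from TMM-scaled totals over tested genes. For SLC25A12 the test statistic gave 0.03 against 0.08 in DESeq2, so standard errors of very large differences may be too small. Library totals ran from 30730335 to 31965438 counts, which limits precision for genes at few counts. Within the F137S and KO-vector antimycin groups, each pair of libraries differed by more than sampling noise, and the other groups were not checked. The part of the excess of even counts in this was not tested. Same-numbered libraries had residual correlations of -0.0762 to 0.0478, with 0 of 4 pairs over 0.1, and were not treated as pairs. The scripts were tested on simulated data.

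The members, the 29 gene lists, the tests and the naming rule were chosen with earlier results of these data known. The rule takes called genes with a mean log2 CPM of at least 1, no overlap between groups and a proper gene name (up to 14 each way), up to 4 called members of a list, and fixed pathway genes; list members that did not pass are named with their values, and exceptions are stated. Alternatives were scaling by DESeq2, omitting the filter, the Wald test of DESeq2 1.42.0, fitting only the compared groups, omitting the libraries labelled knockout plus SLC25A12-WT, a replicate block, halved counts, leaving out each library, and a 2-fold rule. Positions were matched by symbol for 17 of the 19 called genes, all but LOC101927762 and NIBAN1.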

Additional observations from a re-analysis of the deposited data

Results flagged for a closer look

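Of 58 groups of 4 libraries tested over 29 named genes, 1 held a library far from the others, where chance flags about 1 in 20. RERE in F137S cells under antimycin was 64.1 CPM in replicate 1 and 68.3 to 68.8 CPM in the other libraries. Replicate 1 was still above all KO-vector libraries, and without it the call for RERE held.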

How the results depend on the processing

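The 19 genes called under antimycin became 34 with the DESeq2 Wald test and 5 at 2-fold or more; other settings gave 14 to 23, and leaving out a library gave 12 to 28. The 14 vehicle calls became 24 with DESeq2, 7 with counts halved and 6 at 2-fold or more, and 5 to 11 with a library left out. For the difference between treatments, 1 gene was called with only the compared groups and 1 without the libraries labelled knockout plus SLC25A12-WT, and 0 with any library left out. The 8127 calls against WT-vector cells became 615 at 2-fold or more. The replicate block gave 19 genes under antimycin, the same 19, and 1 of 4 F137S libraries correlated best with its own number. Calls were lost with only the compared groups for AKNA, CCDC183-AS1, GNG13, MBD6, NIBAN1, PSAT1 and UNC5B, with halved counts for AKNA, CCDC183-AS1 and GNG13, and with no filter for PSAT1. Values near 0 changed sign when a library was left out: DELE1, from -0.0569 to 0.0423 (0.0423 without KO-vector replicate 4 and 0.0051 without F137S replicate 2), EIF2AK1, from -0.0217 to 0.00113 (0.00113 without KO-vector replicate 4) and ZNNT1, from -0.0799 to 0.132 (-0.0277 without KO-vector replicate 3 and -0.0799 without F137S replicate 3). The cause was not tested in any of these cases. Depth limits HSPA6, GDF15, LOC101927762 and INPP5D, the 4 calls under a mean log2 CPM of 1.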
